A study of Homo sapiens with 6 samples.

Results

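The mitosis and kinetochore genes described here are 60 protein-coding genes whose products build, move and check the chromosomes at cell division: the spindle checkpoint, the chromosomal passenger complex, mitotic kinases and cyclins, centromere and kinetochore subunits, mitotic kinesins, condensin and the cytokinesis machinery. They were listed by name, with earlier results of these data known, and all 60 were found among the 58174 genes of the deposited table. The libraries are polyA(+) mRNA-seq of KNS42 cells, a line from a pediatric glioblastoma (GBM) grown in DMEM with serum, transfected with a control siRNA (siC, 3 libraries) or with an siRNA pool against MSI1 (siMSI1, 3 libraries) and harvested 72 h later. MSI1 (Musashi1) is an RNA-binding protein of neural stem cells, and the comparison of siMSI1 with siC asks which mRNAs change upon its depletion. Both groups are the same line and differ in the siRNAs alone, and the labels name no batch. The sources used here do not say whether the 3 libraries of a group came from separate cultures, so the p-values measure the spread between these libraries only. The number of reads on genes was 15018417, 18024080 and 14448513 in siC and 14379126, 13087025 and 14700593 in siMSI1. The members were covered by 74 to 8030 reads per gene and library.

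Before a cell divides, it duplicates its DNA in S phase, and in G2 and mitosis it makes the proteins that condense the chromosomes, attach them to the spindle at the kinetochores and pull them apart. The kinetochore is layered on the centromere: inner subunits sit on CENP-A chromatin, outer subunits bind microtubules, and the spindle checkpoint holds back anaphase until every kinetochore is attached. Transcripts of many of these genes are low in resting cells and peak in G2 and M phase. Many of their promoters are known for the cell cycle genes homology region (CHR), bound by the MuvB core of the DREAM and MYBL2 complexes. They are also known for CCAAT boxes, bound by NF-Y. Genes of DNA replication peak earlier, in late G1 and S phase, and are known for E2F sites. Glioblastoma cells divide continuously in culture and transcribe both groups.

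The promoters of the members shared letters that the choice of members did not use. RefSeq promoter windows (GRCh38.p14, 250 bases before to 50 after the annotated start) were matched for 50 of the 60 members, with 63 windows in all, since some genes have several starts. The CHR was searched as TTTGAA or TTTAAA and the CCAAT box as CCAAT, both on either strand. A CHR was present in 77.8% of the members' windows and in 24.0% of all 35116 RefSeq windows. A CHR within 50 bases of the start was present in 65.1% of the members' windows and in 7.97% of all windows. CCAAT was present in 68.3% of the members' windows against 34.6% of all windows, and both were present in 55.6% against 9.27%. In the 13420 windows of genes tested for expression, a CHR was present in 17.1%, CCAAT in 35.3% and both in 6.87%. The CHR and CCAAT matches overlapped in 2 of the 63 windows. Such matches are a description of letters and neither a site nor a cause. In all, 31 of the 50 members had a window with both matches. The stretches shown are those of the 6 most abundant of the 16 that also met the rule for named genes, in order of their level. They run from 10 bases before the first match, or from the edge of the window where it is nearer, as in TOP2A, to 10 bases after the last, 5′ to 3′ along the gene, with the CHR and CCAAT letters of either strand in capitals.
CDC20: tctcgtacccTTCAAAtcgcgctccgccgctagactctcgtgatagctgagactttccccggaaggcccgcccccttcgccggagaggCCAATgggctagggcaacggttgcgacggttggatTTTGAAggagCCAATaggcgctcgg
CCNB1: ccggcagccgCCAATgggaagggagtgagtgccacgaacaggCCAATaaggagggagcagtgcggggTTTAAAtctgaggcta
TOP2A: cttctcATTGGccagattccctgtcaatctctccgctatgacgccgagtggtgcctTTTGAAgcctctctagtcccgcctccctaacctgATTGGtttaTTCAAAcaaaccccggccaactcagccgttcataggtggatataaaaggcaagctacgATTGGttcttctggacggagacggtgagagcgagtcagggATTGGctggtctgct
KIF4A: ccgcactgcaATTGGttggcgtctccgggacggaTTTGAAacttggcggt
PRC1: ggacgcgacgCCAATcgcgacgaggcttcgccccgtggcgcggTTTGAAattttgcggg
INCENP: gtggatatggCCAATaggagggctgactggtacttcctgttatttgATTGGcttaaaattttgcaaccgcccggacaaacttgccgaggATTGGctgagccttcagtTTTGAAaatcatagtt

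These stretches lie at chr1:43358793-43358940 (plus strand) for CDC20, chr5:69167053-69167135 (plus strand) for CCNB1, chr17:40417935-40418146 (minus strand) for TOP2A, chrX:70290036-70290085 (plus strand) for KIF4A, chr15:90994540-90994598 (minus strand) for PRC1 and chr11:62123894-62124016 (plus strand) for INCENP. In CCNB1, KIF4A, PRC1 and INCENP, a CCAAT box on either strand precedes a CHR that ends the stretch close to the RefSeq start of transcription. The RefSeq start used for PRC1 lies inside the gene as GENCODE 44 annotates it. In TOP2A, 4 CCAAT boxes in the inverted orientation surround 2 CHR matches. Of the 31 members with both matches, 6 fell upon MSI1 knockdown (CDK1, ESPL1, HJURP, MKI67, NCAPH and PRC1) and 25 did not pass the threshold, as described below, beside 5.83% of all tested genes and 15% of the 60 members that fell. Of the 6 printed here, PRC1 is among them. Along the windows, the members' CHR matches were most frequent in the 50 bases before the start, with 23.8% of windows from -50 to -25 and 22.2% from -25 to the start. The members' CCAAT matches were most frequent from -75 to -50, in 36.5% of windows.

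**Figure D1:**
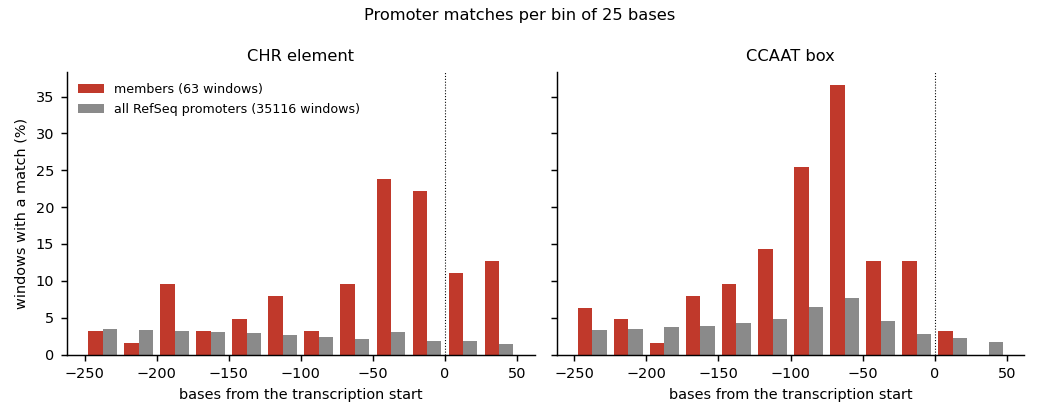
The x axis gives the distance from the annotated transcription start in bases and the y axis the percentage of RefSeq promoter windows with a match in each bin of 25 bases, for the members' 63 windows (red) and all 35116 windows (grey). The members' CHR bars are highest in the 50 bases before the start and their CCAAT bars between 75 and 50 bases before it, while the grey bars stay below 10% throughout.

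The gene with the largest change among the members, CENPK, did not share this layout, and its stretch is shown for that reason, chosen after its values were seen. The window of 300 bases around the CENPK start held 3 CCAAT matches and neither CHR letters, and the stretch printed from it (chr5:65563174-65563277 (minus strand)) has the CCAAT letters in capitals. Beside it stands MCM7, a subunit of the replicative helicase, from the list of DNA replication genes (chr7:100101389-100101594 (minus strand)), where the capitals mark E2F letters.
CENPK: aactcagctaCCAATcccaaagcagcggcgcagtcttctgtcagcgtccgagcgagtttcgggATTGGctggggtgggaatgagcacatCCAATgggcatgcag
MCM7: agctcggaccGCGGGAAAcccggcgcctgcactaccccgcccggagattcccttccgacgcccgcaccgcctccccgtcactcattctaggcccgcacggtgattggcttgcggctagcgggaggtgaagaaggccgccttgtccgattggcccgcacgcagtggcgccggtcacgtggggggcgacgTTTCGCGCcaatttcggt

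E2F letters were searched as TTTCCCGC, TTTGGCGC, TTTCGCGC or TTTGCCGC on both strands. They were present in 7.94% of the members' windows (5 of 63), against 3.32% of all windows and 5.08% of the windows of genes tested for expression. In the 36 windows of the replication genes they were present in 44.4%, while a CHR was present in 5.56% of those windows and CCAAT in 58.3%. The CCAAT and E2F letters overlapped in 1 of the 36. Among the 9 members that fell, 7 had windows, and 7 of their 8 windows held a CHR and 8 of 8 a CCAAT box. Among the 43 members with windows that did not pass the threshold, 76.4% of 55 windows held a CHR and 63.6% a CCAAT box.

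MSI1 reached 63.7, 61.9 and 66.9 FPKM in the siC libraries against 12.1, 12.3 and 11.2 FPKM in the siMSI1 libraries, where FPKM is a read number divided by gene length and library size, so that levels of different genes can be compared per length. The groups did not overlap, and the siMSI1 mean of 11.8 ± 0.575 FPKM was 18.5% of the siC mean of 64.2 ± 2.53 FPKM (SD, n = 3 each; log2 fold change -2.43, SE 0.067, adjusted p = 8.71e-06). Fold changes are on the scale of log2(FPKM + 0.1), tests are limma's moderated test with Benjamini-Hochberg adjustment over the 15069 genes with a mean of at least 0.5 FPKM, and the threshold is an adjusted p of 0.01. All 60 members passed the filter on low values. The paralog MSI2 was at 16.9 ± 0.96 FPKM in siC and 14.3 ± 1.07 FPKM in siMSI1, which did not pass the threshold (adjusted p = 0.0622). The neural progenitor genes SOX2 (300.6 ± 4.61 FPKM), VIM (1035 ± 33.8 FPKM) and NES (69.2 ± 1.01 FPKM) were expressed in siC. In siMSI1 they were at 85.6%, 83.6% and 89.3% of the siC mean. Their groups did not overlap, and none passed the threshold (limma adjusted p = 0.0526, 0.0382 and 0.0944). S100B, an astroglial marker, was listed at 0 in all 6 libraries. Of 9 markers of immune and endothelial cells, none reached a mean of 0.5 FPKM.

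Upon MSI1 knockdown, 9 of the 60 members fell (15%) and 0 rose. The members that fell were CENPK and CENPM of the inner kinetochore, the CENP-A chaperone HJURP, the mitotic kinase CDK1, the separase ESPL1, the spindle proteins TPX2 and PRC1, the condensin subunit NCAPH and the chromosome surface protein MKI67. Among all tested genes, 5.83% fell and 5.15% rose, and among the 10412 genes at least as expressed as the lowest member, 7.56% fell. At an adjusted p of 0.05, 24 members were lower (40%) and 0 higher, against 12.9% and 12.2% of all tested genes. By limma's p without adjustment, 30 members were lower and 1, KIF20A, was higher at 0.05, against 19.3% and 19% of all tested genes. voom on the recovered reads also found 0 members higher at the threshold, against 8.81% of all tested genes. The log2 fold change was below 0 for 50 of 60 members (83.3%), with a median of -0.22 and a range of -1.35 to 0.18, while the median over all tested genes was 1.46e-05. All siMSI1 libraries lay below all siC libraries for 31 members (51.7%) against 21.5% of all tested genes. The reverse held for 2 members, CENPH and KIF20A, against 21.4% of all tested genes. In these bulk libraries, fewer cells in G2 and M phase and less RNA per cell cannot be told apart. When a library was left out, the number that fell became 1 without siC replicate 1, 2 without siC replicate 2, siC replicate 3, siMSI1 replicate 1 or siMSI1 replicate 2, and 10 without siMSI1 replicate 3. In the same order, 1.8%, 2.97%, 2.78%, 2.88%, 3.3% and 6.15% of all tested genes fell. CENPK was past the threshold in each of these 6 fits, and the other 8 in 0 to 2 of them. Over all 17 alternative fits, CENPK passed in 17 and the other 8 in 8 to 11 each.

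**Figure D2:**
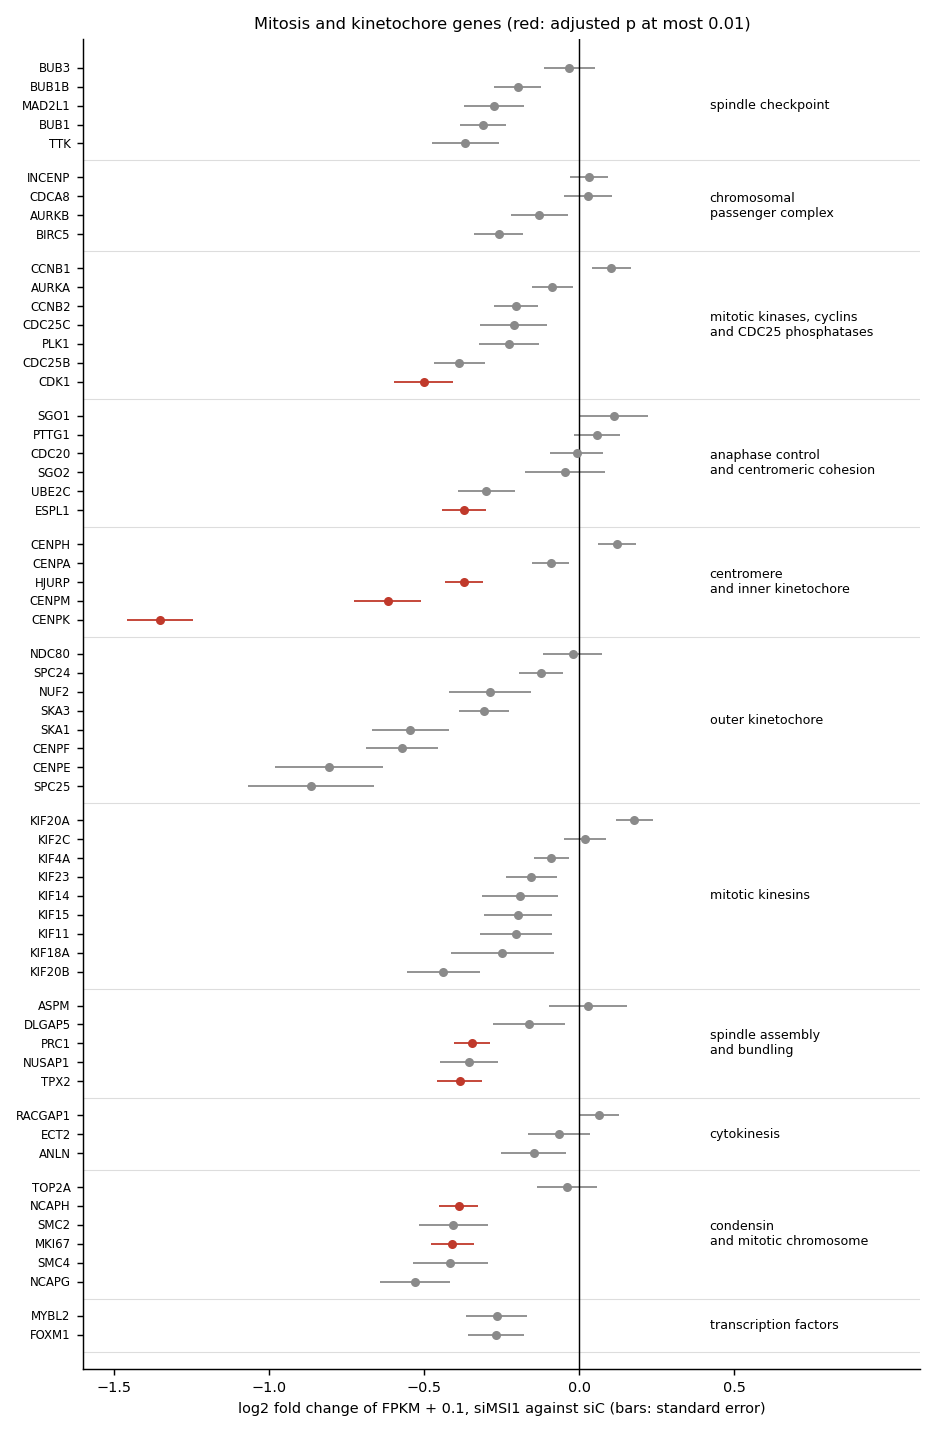
Log2 fold change of FPKM + 0.1 (siMSI1 against siC, x axis) for each of the 60 members, grouped by role, with bars for the standard error and red for an adjusted p of at most 0.01. 50 of the 60 points lie left of 0, and CENPK stands apart at -1.35.

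Libraries of the same group were not alike for the members, and this bears on each value that follows. The summed level of the 60 members was 1942, 1996 and 1943 FPKM in siC and 1686, 1703 and 1747 FPKM in siMSI1, so every siMSI1 sum lay below every siC sum. The median difference of the members from their siC mean was -0.010, 0.054 and -0.060 (log2) in the siC libraries and -0.21, -0.20 and -0.26 in the siMSI1 libraries. Within siC, replicate 2 was highest for 37 members and replicate 3 lowest for 35, and within siMSI1, replicate 3 was lowest for 29 and highest for 22. These differences ran with the GC content of the transcripts. In the 30 members of lower GC content (32.8% to 42.3%), the median difference from siC was -0.14, -0.11 and -0.39 in siMSI1 replicates 1, 2 and 3, so replicate 3 was the lowest. In the 30 members of higher GC content (43.1% to 61.4%), it was -0.31, -0.26 and -0.10, and replicate 3 was nearest to siC. Over 14931 tested genes, the correlation of each library's deviation with GC content was -0.0029, -0.21 and 0.16 in siC and -0.084, -0.13 and 0.25 in siMSI1, a description across genes, which are not independent. The median log2 fold change was -0.23 in the members of lower GC content, of which 2 fell, and -0.22 in those of higher GC content, of which 7 fell. With each library corrected for GC content, an alternative added after the data were seen, 10 and 13 of them fell, while 10.8% of all tested genes fell in that fit, against 5.83% without the correction.

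**Figure D3:**
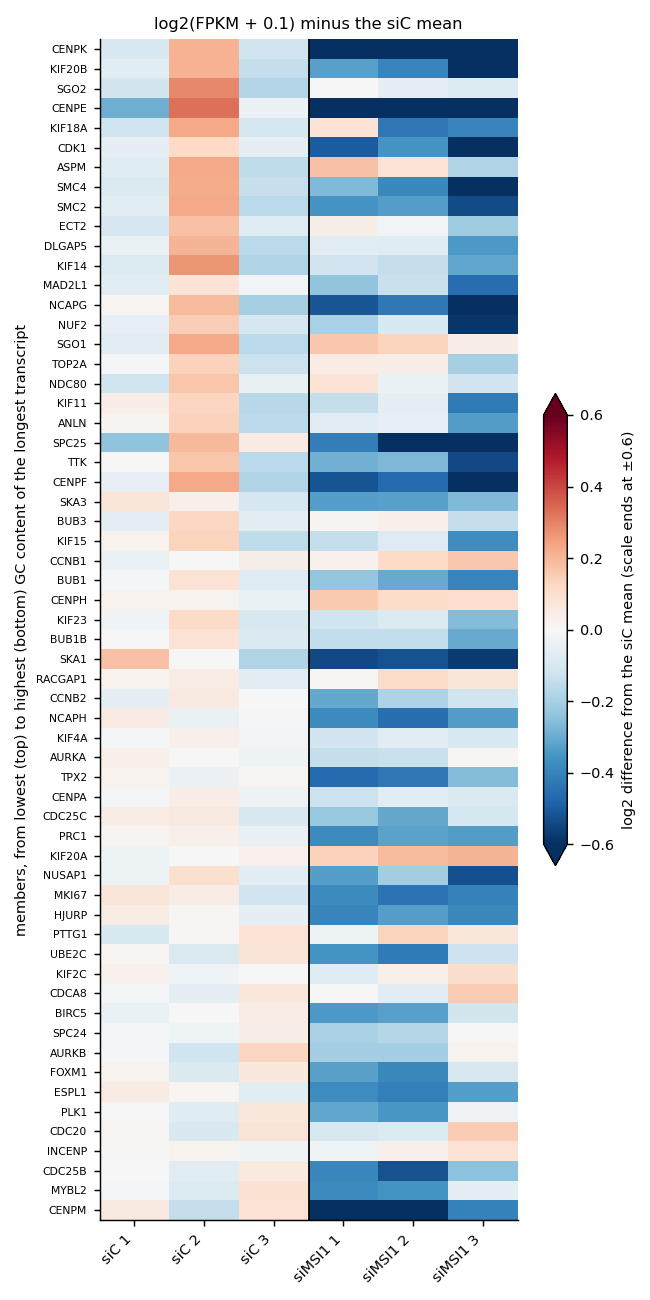
Difference of log2(FPKM + 0.1) from the siC mean (colour scale, ending at ±0.6) for each member (rows, from lowest GC content at the top to highest at the bottom) in the 6 libraries (columns). siC 2 is red and siMSI1 3 dark blue in the upper rows, while in the lower rows siMSI1 1 and siMSI1 2 are the bluer of the siMSI1 columns.

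In the centromere and inner kinetochore group, 3 of 5 members fell, beside 5.83% of all tested genes, with a group median of -0.37. When each library was left out in turn, CENPK passed in 6 of 6 fits, CENPM in 2 and HJURP in 1. CENPK, a subunit of the constitutive network that links centromeric chromatin to the outer kinetochore, was at 7.24, 8.96 and 7.11 FPKM in siC and 3.01, 2.94 and 2.96 FPKM in siMSI1. The siMSI1 values lay within 0.1 FPKM of each other and far below every siC value, at 38.2% of the siC mean (log2 fold change -1.35, SE 0.107, adjusted p = 0.000366). Its reads numbered 441 to 699 per siC library and 166 to 191 per siMSI1 library. CENPK is on chr5:65517766-65563168 (minus strand). CENPM, a further subunit of this network (chr22:41938737-41947152, minus strand), was at 21.6, 18.9 and 22.2 FPKM in siC and 12.6, 12.6 and 15.7 FPKM in siMSI1. Every siMSI1 library was below every siC library, with siMSI1 replicate 3 the closest (log2 fold change -0.62, SE 0.108, adjusted p = 0.00601). HJURP, which loads CENP-A onto centromeres (chr2:233833416-233854566, minus strand), was at 28, 27.4 and 26.1 FPKM in siC and 20.6, 21.6 and 20.7 FPKM in siMSI1. The groups were well apart, with 77.2% of the siC mean left in siMSI1 (log2 fold change -0.37, SE 0.061, adjusted p = 0.0047). CENPA, the histone H3 variant that marks the centromere and the most abundant of the 5, was at 31.4, 32.6 and 31 FPKM in siC and 28.9, 30.4 and 29.8 FPKM in siMSI1. The groups did not overlap, but the difference did not pass the threshold (log2 fold change -0.09, SE 0.059, adjusted p = 0.294). CENPH, a direct partner of CENPK in the same subcomplex, was at 13.4, 13.4 and 12.9 FPKM in siC and 14.8, 14.3 and 14.2 FPKM in siMSI1. All siMSI1 libraries were above all siC libraries by a small margin that did not pass the threshold (log2 fold change 0.12, SE 0.062, adjusted p = 0.19).

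CENPH and CENPK were therefore compared within libraries, a comparison chosen after their values were seen. The ratio of CENPH to CENPK per length was 1.86, 1.5 and 1.81 in siC and 4.92, 4.87 and 4.81 in siMSI1, a log2 difference of 1.5. The groups did not overlap, and p = 0.1 in an exact permutation test (two-sided), the lowest value attainable with 3 libraries in each group. Since CENPK was lower and CENPH higher in every siMSI1 library, the choice of this pair fixed that outcome, so the test decides nothing.

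None of the 8 outer kinetochore members passed the threshold, although 5 did at an adjusted p of 0.05 (12.9% of all tested genes were lower at that level), and their median was -0.43. SPC25, a subunit of the NDC80 complex that binds microtubules, was at 12.3, 16.6 and 15 FPKM in siC and 10.9, 6.96 and 6.54 FPKM in siMSI1. siMSI1 replicate 1 lay close to the lowest siC library and the other siMSI1 libraries lay far below (log2 fold change -0.87, SE 0.204, adjusted p = 0.0219). NDC80, the subunit that carries the microtubule-binding domain, was at 9.27, 11.3 and 9.77 FPKM in siC and 10.7, 9.85 and 9.32 FPKM in siMSI1. Its groups overlapped (log2 fold change -0.02, SE 0.096, adjusted p = 0.894). SPC24, which pairs with SPC25 in the same complex and was the most abundant of the 8, was at 35.2, 34.8 and 36.4 FPKM in siC and 31, 31.4 and 35.4 FPKM in siMSI1. siMSI1 replicate 3 fell within the siC range (log2 fold change -0.12, SE 0.072, adjusted p = 0.252). The ratio of NDC80 to SPC25, again chosen after their values were seen, was 0.756, 0.683 and 0.652 in siC and 0.983, 1.42 and 1.42 in siMSI1, a log2 difference of 0.85 (p = 0.1 in a two-sided exact permutation test, its lower limit here). NDC80 and SPC25 had the highest and lowest log2 fold change of this group, so this test, too, decides nothing. CENPE, a kinesin that carries chromosomes to the spindle equator, and CENPF, a large protein of the corona, are named after their values were seen. CENPE was at 2.55, 3.98 and 3.07 FPKM in siC and 2.0, 1.66 and 1.63 FPKM in siMSI1 and CENPF at 31.4, 38 and 28.6 FPKM in siC and 22.6, 23.5 and 19.5 FPKM in siMSI1. Neither gene's groups overlapped, and neither passed the threshold (log2 fold change -0.81, SE 0.175, adjusted p = 0.0139 for CENPE and log2 fold change -0.57, SE 0.117, adjusted p = 0.0114 for CENPF).

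Of the 7 mitotic kinases, cyclins and CDC25 phosphatases, 1 fell, beside 5.83% of all tested genes. CDK1, the kinase that drives entry into mitosis (chr10:60778331-60794852, plus strand), was at 18.8, 21.3 and 18.8 FPKM in siC and 13.9, 15.3 and 12.4 FPKM in siMSI1. siMSI1 replicate 3 was lowest, and no siMSI1 library reached the siC range (log2 fold change -0.50, SE 0.095, adjusted p = 0.00827). CCNB1, cyclin B1, the activating partner of CDK1, was at 80.6, 83 and 84.8 FPKM in siC and 84.4, 90 and 92.6 FPKM in siMSI1. siMSI1 replicate 1 lay within the siC range and the others above it, a difference that did not pass the threshold (log2 fold change 0.10, SE 0.063, adjusted p = 0.278). The ratio of CCNB1 to CDK1, chosen after their values were seen, was 4.29, 3.90 and 4.50 in siC and 6.09, 5.86 and 7.46 in siMSI1, a log2 difference of 0.61 (p = 0.1 in a two-sided exact permutation test, its lower limit here). As CCNB1 and CDK1 had the highest and lowest log2 fold change of this group, the test decides nothing. CDC25B, a phosphatase that activates CDK1, had the highest mean level of the CDC25 members and was at 89.9, 85.9 and 93.6 FPKM in siC and 68.5, 62.4 and 75.7 FPKM in siMSI1. Its groups did not overlap, and it missed the threshold (log2 fold change -0.39, SE 0.084, adjusted p = 0.0138). This gene, too, was singled out after its values were seen.

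The condensin and mitotic chromosome group had 2 of 6 members past the threshold and 5 of 6 at an adjusted p of 0.05, beside 5.83% and 12.9% of all tested genes, and a median of -0.41. MKI67, the antigen Ki-67 that coats mitotic chromosomes and marks proliferating cells (chr10:128096659-128126423, minus strand), was at 34.9, 34.2 and 30.7 FPKM in siC and 25.5, 24.4 and 25 FPKM in siMSI1. The siMSI1 libraries lay within a narrow range below all siC libraries (log2 fold change -0.41, SE 0.070, adjusted p = 0.00553). NCAPH, the kleisin subunit of condensin I (chr2:96335766-96377091, plus strand), was at 27.3, 25.6 and 26.1 FPKM in siC and 20.2, 19.2 and 20.8 FPKM in siMSI1. The groups were apart by more than the range of either (log2 fold change -0.39, SE 0.064, adjusted p = 0.00462). NCAPG, another condensin I subunit, was at 12.1, 13.7 and 10.4 FPKM in siC and 8.4, 8.91 and 7.6 FPKM in siMSI1. Its groups did not overlap, with siC more spread than siMSI1, and it missed the threshold (log2 fold change -0.53, SE 0.112, adjusted p = 0.0128). TOP2A, the topoisomerase that untangles sister DNA and the most abundant of the 6, was at 60.3, 66.9 and 55.6 FPKM in siC and 62.6, 62.4 and 52.9 FPKM in siMSI1. The groups overlapped (log2 fold change -0.04, SE 0.097, adjusted p = 0.805).

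Among the 5 genes of spindle assembly and bundling, 2 fell, beside 5.83% of all tested genes, and the median was -0.35. TPX2, which targets and activates Aurora A on spindle microtubules (chr20:31739271-31801805, plus strand), was at 97.8, 94.1 and 97.2 FPKM in siC and 69.7, 71.5 and 80.4 FPKM in siMSI1. It was the most abundant member that fell, with siMSI1 replicate 3 the closest to siC (log2 fold change -0.39, SE 0.072, adjusted p = 0.00794). PRC1, which bundles antiparallel microtubules in the spindle midzone (chr15:90966040-90995629, minus strand), was at 44.7, 45.2 and 42.8 FPKM in siC and 33.9, 35.4 and 35.1 FPKM in siMSI1. The groups were apart (log2 fold change -0.35, SE 0.059, adjusted p = 0.00543). Exons of PRC1 share 1892 bases with PRC1-AS1 on the opposite strand, a gene at 5.08, 5.01 and 5.95 FPKM in siC and 4.41, 3.26 and 4.14 FPKM in siMSI1. The libraries are strand-specific, but the strand setting of the counting is not given in the sources used here. ASPM, a protein of the spindle poles, was at 13.8, 17 and 13.1 FPKM in siC and 16.4, 15.4 and 12.8 FPKM in siMSI1. Its groups overlapped (log2 fold change 0.03, SE 0.126, adjusted p = 0.9).

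Anaphase control and centromeric cohesion had 1 of 6 members past the threshold, beside 5.83% of all tested genes, and a median of -0.03. ESPL1, separase, the protease that cuts cohesin at anaphase (chr12:53268299-53293638, plus strand), was at 10.3, 10 and 9.53 FPKM in siC and 7.65, 7.47 and 7.9 FPKM in siMSI1. The highest siMSI1 library was well below the lowest siC library (log2 fold change -0.37, SE 0.070, adjusted p = 0.00797). CDC20, the activator of the anaphase-promoting complex, had the highest level of all 60 members and was at 109.5, 102 and 115 FPKM in siC and 102, 102 and 121 FPKM in siMSI1. The groups overlapped and their means, 109 ± 6.39 and 108 ± 10.7 FPKM, were close (log2 fold change -0.01, SE 0.087, adjusted p = 0.952). SGO1, shugoshin, which protects cohesin at centromeres, was at 6.45, 7.94 and 6.05 FPKM in siC and 7.59, 7.43 and 6.95 FPKM in siMSI1. The siMSI1 libraries lay within the siC range (log2 fold change 0.11, SE 0.111, adjusted p = 0.507).

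**Figure D4:**
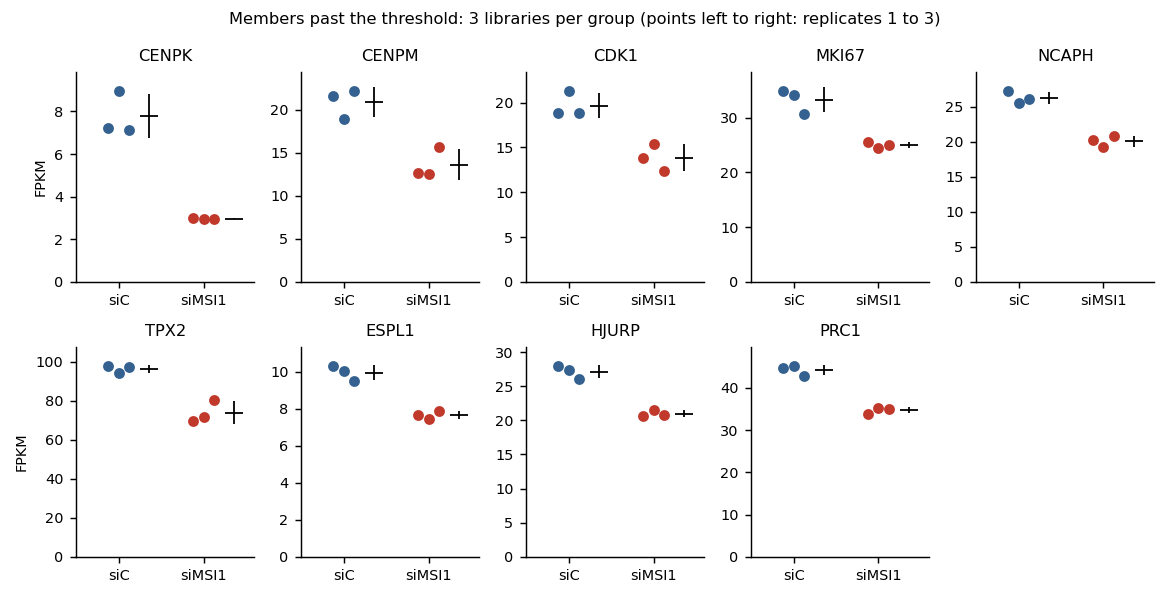
FPKM (y axis, from 0) of the 9 members that fell, with 1 point per library (replicates 1 to 3 from left to right), a horizontal mark for the mean and a vertical bar for the SD. In each panel all siMSI1 points lie below all siC points, and the siMSI1 mean is the smallest share of the siC mean in CENPK, 38.2%.

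The remaining groups had no member past the threshold. The spindle checkpoint, with 5 members, had a median of -0.28. At an adjusted p of 0.05, 2 members were lower, beside 12.9% of all tested genes. TTK, the kinase that starts checkpoint signalling, was at 17.6, 19.8 and 15.8 FPKM in siC and 14.5, 14.6 and 12.1 FPKM in siMSI1. All siMSI1 libraries were below all siC libraries (log2 fold change -0.37, SE 0.109, adjusted p = 0.0428). BUB1B, a subunit of the complex that inhibits CDC20, was at 30, 31.8 and 28.2 FPKM in siC and 27, 27 and 24.3 FPKM in siMSI1. The groups did not overlap, with a gap of about 1 FPKM (log2 fold change -0.20, SE 0.076, adjusted p = 0.0919). BUB3, the adaptor that brings BUB proteins to kinetochores, was at 17.5, 19.8 and 17.3 FPKM in siC and 18.4, 18.5 and 16.4 FPKM in siMSI1. Its groups overlapped (log2 fold change -0.03, SE 0.082, adjusted p = 0.812).

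The chromosomal passenger complex, which corrects faulty attachments, had 4 members with a median of -0.05. Only 1 member was lower at an adjusted p of 0.05, beside 12.9% of all tested genes. That member was BIRC5, survivin, at 68.4, 70.1 and 72.4 FPKM in siC and 55.3, 56 and 65.1 FPKM in siMSI1. Every siMSI1 library was below every siC library, replicate 3 least so (log2 fold change -0.26, SE 0.079, adjusted p = 0.0461). INCENP, the scaffold of the complex, was at 38.8, 39.2 and 38 FPKM in siC and 38, 39.5 and 41.1 FPKM in siMSI1. Its groups overlapped (log2 fold change 0.03, SE 0.060, adjusted p = 0.743).

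The 9 mitotic kinesins, motors that move along microtubules, had a median of -0.19. Of these, 1 gene (11.1%) was lower at an adjusted p of 0.05, beside 12.9% of all tested genes. KIF20B, a kinesin of late mitosis, was that gene, at 8.13, 9.84 and 7.68 FPKM in siC and 6.76, 6.45 and 5.58 FPKM in siMSI1. The groups were apart, and siMSI1 replicate 3 was lowest (log2 fold change -0.44, SE 0.117, adjusted p = 0.0302). KIF20A, which carries the passenger complex to the midzone, was at 21.7, 22.1 and 22.5 FPKM in siC and 24.3, 25.2 and 25.5 FPKM in siMSI1. All siMSI1 libraries were above all siC libraries, and this largest positive value among the members did not pass the threshold (log2 fold change 0.18, SE 0.059, adjusted p = 0.0631). KIF4A, a chromatin-bound kinesin and the most abundant of the 9, was at 44.9, 46.2 and 44.7 FPKM in siC and 41.8, 43.3 and 42.5 FPKM in siMSI1. Its groups did not overlap, at 93.9% of the siC mean (log2 fold change -0.09, SE 0.057, adjusted p = 0.288). Exons of KIF20A share 132 bases with BRD8 and 74 with CDC23 on the opposite strand, and those of KIF4A 77 bases with PDZD11.

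Of the 3 cytokinesis genes, 0 were past either threshold and the median was -0.07. RACGAP1, a subunit of centralspindlin, was at 42.1, 42.8 and 39.8 FPKM in siC and 41.7, 44.9 and 43.7 FPKM in siMSI1. ANLN, the scaffold anillin of the contractile ring, was at 35.7, 38.9 and 31.7 FPKM in siC and 33.8, 34.1 and 28 FPKM in siMSI1. Both genes' groups overlapped (log2 fold change 0.06, SE 0.063, adjusted p = 0.509 for RACGAP1 and log2 fold change -0.15, SE 0.106, adjusted p = 0.35 for ANLN).

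The transcription factors FOXM1 and MYBL2, which activate G2 and M phase genes, had a median of -0.27 and did not pass either threshold. FOXM1 was at 93.8, 87.1 and 96.6 FPKM in siC and 73.8, 70.7 and 86.5 FPKM in siMSI1. The siMSI1 libraries were below the siC libraries, with replicate 3 nearly level with the lowest of them (log2 fold change -0.27, SE 0.090, adjusted p = 0.0631). MYBL2 was at 40.9, 39 and 44 FPKM in siC and 31.6, 32.2 and 39.5 FPKM in siMSI1. Its siMSI1 replicate 3 lay within the siC range (log2 fold change -0.27, SE 0.099, adjusted p = 0.0859).

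Genes that work beside the members were tabled as 9 further lists, whose counts are read against the same 5.83% and 5.15% of all tested genes. Of 30 other kinetochore and centromere genes, 5 fell and 0 rose, with a median of -0.22, the same as that of the members to 2 decimals. OIP5, which prepares centromeres for CENP-A loading with HJURP, fell from 23.7 ± 0.412 to 13.3 ± 0.434 FPKM (log2 fold change -0.83, SE 0.061, adjusted p = 0.000274). KNTC1, a subunit that recruits dynein to kinetochores, fell from 2.01 ± 0.166 to 1.1 ± 0.102 FPKM (log2 fold change -0.81, SE 0.144, adjusted p = 0.0064). The most abundant gene of this list, CENPX, was at 84.2 ± 6.41 FPKM in siC and 109.1 ± 8.87 FPKM in siMSI1, which missed the threshold (adjusted p = 0.0182). Of 16 other G2/M regulators, 3 fell and 0 rose (median -0.16). These included the CDK1-inhibiting kinase PKMYT1 (log2 fold change -0.71, adjusted p = 0.0053) and the kinase MASTL, which restrains a phosphatase that opposes CDK1 (log2 fold change -0.57, adjusted p = 0.0051). Of 24 other spindle and cytokinesis genes, 2 fell and 0 rose (median -0.23), namely the minus-end kinesin KIFC1 (log2 fold change -0.66, adjusted p = 0.0016) and the microtubule polymerase CKAP5 (log2 fold change -0.32, adjusted p = 0.0074).

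Of 13 genes of cohesin, the ring that holds sister chromatids together, 3 fell and 0 rose (median -0.24). CDCA5, sororin, which stabilises the ring, fell from 41.2 ± 1.24 to 25.6 ± 1.90 FPKM (log2 fold change -0.69, adjusted p = 0.000818), and its core subunit SMC1A from 27.8 ± 1.51 to 17.2 ± 0.321 FPKM (log2 fold change -0.68, adjusted p = 0.000571). Of 16 genes of the anaphase-promoting complex and its partners, 0 fell and 1 rose (median 0.07). That gene was the small subunit ANAPC13, which went from 23.2 ± 1.36 to 33.2 ± 0.379 FPKM (log2 fold change 0.51, adjusted p = 0.0016). None of the 4 other condensin subunits passed the threshold (median -0.07). Of 10 MuvB and DREAM genes, which govern the CHR, 2 fell and 1 rose (median -0.31). The histone-binding subunit RBBP4 fell (log2 fold change -0.47, adjusted p = 0.0041), as did the E2F partner TFDP1 (log2 fold change -0.38, adjusted p = 0.0035), while E2F5, a repressive E2F of the complex, rose (log2 fold change 0.54, adjusted p = 0.0096).

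The DNA replication list had the largest share of lower genes among the lists. Of its 35 genes, 18 fell (51.4%) and 0 rose, with a median of -0.43, beside 15% and -0.22 for the members. Without siC replicate 1 the number that fell was 6, and it was 9 to 10 without siC replicate 2 or 3 or siMSI1 replicate 1 or 2. The difference between the lists was not tested. GINS2, of the helicase complex, fell from 28.2 ± 1.37 to 11.5 ± 0.308 FPKM (log2 fold change -1.29, SE 0.066, adjusted p = 0.000129), and CDC6, which loads the helicase at origins, from 17.7 ± 0.563 to 9.10 ± 0.790 FPKM (log2 fold change -0.95, SE 0.080, adjusted p = 0.000395). MCM7, whose promoter stretch is given above, was the most abundant and fell from 135.7 ± 5.59 to 105.6 ± 6.38 FPKM (log2 fold change -0.36, adjusted p = 0.009). Of 16 tested G1/S cyclins, CDKs and E2F genes, 4 fell and 2 rose (median -0.25). CCNE1, cyclin E1, fell (log2 fold change -0.92, adjusted p = 0.0031), as did E2F1, the activator of S phase genes (log2 fold change -0.89, adjusted p = 0.0014). Those that rose were CDK inhibitors: CDKN1A (p21) went from 3.52 ± 0.823 to 7.43 ± 0.108 FPKM (log2 fold change 1.08, adjusted p = 0.0025) and CDKN1B (p27) from 23.6 ± 0.736 to 33.9 ± 3.03 FPKM (log2 fold change 0.52, adjusted p = 0.0037). CDK4, the most abundant of this list, was at 142.9 ± 8.44 and 143.7 ± 9.10 FPKM (adjusted p = 0.953).

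**Figure D5:**
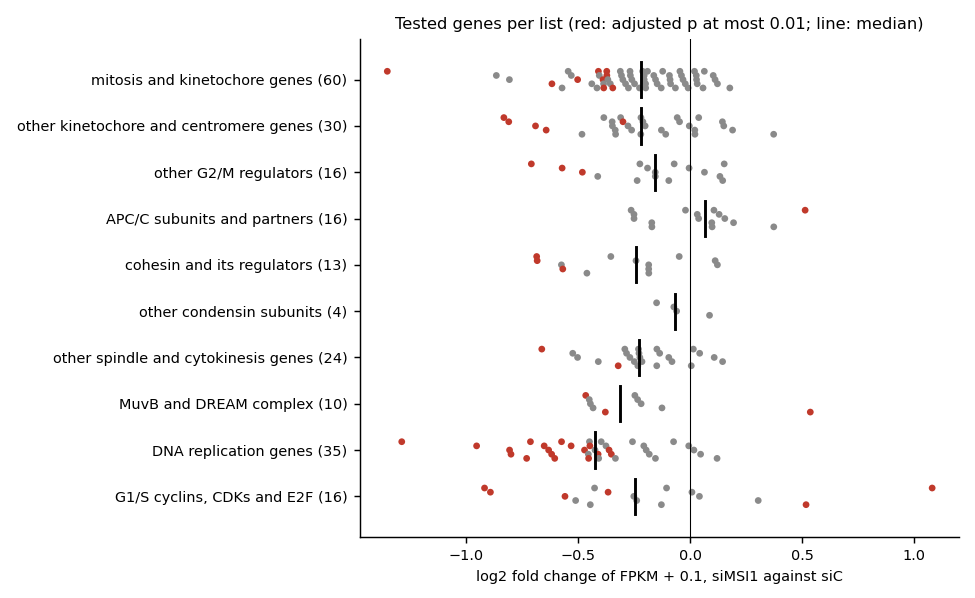
Log2 fold change of FPKM + 0.1 (x axis) of every tested gene in the members and the 9 further lists (number tested in brackets), with red for an adjusted p of at most 0.01 and a black line for the median. The median is lowest, at -0.43, in the DNA replication list and above 0 only in the list of the anaphase-promoting complex, at 0.07.

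As the members are counted by exons, shared sequence limits some values. Exons of 20 of the 60 members overlap those of another gene in the deposited table, 18 of them on the opposite strand, by the GENCODE 44 annotation. Of the members that fell, only PRC1 and HJURP were among them, and HJURP shared 8 bases with MROH2A. NCAPG shared 1634 bases with LCORL and FOXM1 782 bases with ITFG2, both on the opposite strand. OIP5, of the kinetochore list, shared 352 bases with the member NUSAP1 on the opposite strand.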

How the data were processed

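Per the labels and the study's methods, the authors clipped reads with cutadapt 1.14, aligned them to hg38 with HISAT2 2.1.0, sorted them with SAMtools 1.5, counted them per gene with featureCounts 1.5.3 and normalised with edgeR 3.18.1. The authors deposited their FPKM values in 1 table of all genes and libraries. Dividing by the value of 1 read gave whole reads for 100% of values (tolerance 0.01). 3 columns with the authors' own comparison were not used.

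Genes with a mean of at least 0.5 FPKM (15069) were fitted on log2(FPKM + 0.1) with limma 3.58.1 (R 4.3.3, lmFit, eBayes with trend and robust, two-sided). Benjamini-Hochberg adjustment covered these genes, and the threshold was 0.01. The fit was tested on simulated data, where recovery was required only for changes of at least 2-fold in genes with enough reads. That requirement did not cover the smaller changes of the members other than CENPK, nor the differences with GC content between these libraries. Precision is limited by depth: 3 reads on a gene of 2 kb equal 0.0829 to 0.114 FPKM, counting error only. No libraries were duplicates.

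The members and lists were chosen with earlier results of these data known. By the rule for named genes, values in every library are given for members past the threshold and, in each role group, for the most abundant, lowest and highest fold change. Further lists name at most the 2 lowest and 2 highest past the threshold and the most abundant, except for a gene that is not reported here. 19 alternatives were run. GC content and overlaps came from GENCODE 44, promoters from RefSeq.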

Additional observations from a re-analysis of the deposited data

How the results depend on the processing

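In every alternative, 0 members rose and the members' median log2 fold change stayed between -0.25 and -0.19, with 46 to 51 members below 0. The number of members that fell, 9 of 1655 changed genes, moved more. It was 1 of 792 without a filter on low genes, 1 of 847 with plain variance moderation, 20 of 2855 with voom on the recovered reads, and 23 of 3157 with a GC correction, which was added after the data were seen. In the same order, 1.47%, 3.23%, 10.1% and 10.8% of all tested genes fell. At an adjusted p of 0.05 it was 24 of 3787, and with a 2-fold change in addition 1 of 294. Leaving out each replicate in turn gave 1 to 10 members and 517 to 1603 genes. Of the 35 DNA replication genes, 18 fell, against 8 without a filter, 9 with plain variance moderation and 26 with the GC correction. The causes were not tested, other than fewer libraries or another threshold by construction. Libraries sharing a replicate number deviated together with correlations of -0.066, 0.078 and 0.083, and the main fit did not take the numbers as pairs. The deviations with GC content did run alike by number. Each library's correlation with GC content was negative in replicate 2 (-0.21 in siC and -0.13 in siMSI1) and positive in replicate 3 (0.16 and 0.25). Whether the numbers mark pairs was not tested. With a replicate block, 16 members fell among 2250 genes, and with voom and the replicate block 31 among 5072. Of all tested genes, 7.78% and 17.1% fell in these fits. Among the 32 members that met the rule for named genes, 16 of the refitted fold changes turned sign, all of them close to 0 and none past the threshold. CDC20 was 0.0031 with median centring, and NDC80 was 0.0025 with quantile normalization and 0.0081 with the GC correction. Leaving out each replicate gave -0.066 to 0.029 for BUB3, -0.089 to 0.033 for CDC20, -0.083 to 0.062 for NDC80, -0.048 to 0.14 for ASPM and -0.10 to 0.041 for TOP2A. Of their other fold changes, 499 kept their direction and side of the threshold, 66 no longer passed it and 27 newly did. Depth limits the lowest members, with 74 reads in 1 library at the least.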

Other observations

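Markers of cell identity and of the response to double-stranded RNA were read in the same libraries. Of 6 tested genes of neural progenitor and astroglial cells, 2 fell and 1 rose, beside 5.83% and 5.15% of all tested genes, and 1 of the 2 that fell was MSI1, the target of the siRNAs. The other was FABP7, a fatty acid binding protein of radial glia, at 35.7, 38.4 and 34.3 FPKM in siC and 17.0, 17.8 and 15.1 FPKM in siMSI1 (log2 fold change -1.12, limma adjusted p = 0.000274). GFAP, an intermediate filament of astrocytes, rose, with 1.33, 1.57 and 1.99 FPKM in siC and 4.14, 4.65 and 5.04 FPKM in siMSI1 (log2 fold change 1.46, limma adjusted p = 0.000905). In both genes the groups did not overlap.

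Of 10 interferon-stimulated genes, 7 were tested, 0 fell and 1 rose, read against the same shares. OAS1, a sensor of double-stranded RNA, went from 0.823, 0.905 and 0.688 FPKM in siC to 1.43, 1.63 and 1.79 FPKM in siMSI1 (log2 fold change 0.92, limma adjusted p = 0.0086). The list as a whole did not move with it: 3 of the 7 had a log2 fold change below 0, and the median was 0.02. IFIT3, named after its values were seen, went from 10.1 ± 0.559 to 7.45 ± 1.16 FPKM without passing the threshold (log2 fold change -0.45, limma adjusted p = 0.0306). Of 5 neuronal markers, 2 were tested and neither passed the threshold, and RBFOX3 was listed at 0 in all libraries. None of 5 immune and 4 endothelial markers was tested; their highest single value was 0.509 FPKM, of CD68 in siMSI1 replicate 3.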
